A study of Mus musculus with 6 samples.

Results

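The Cyp2c family of cytochrome P450 enzymes was examined in mouse liver. It was taken as 10 genes, Cyp2c29, Cyp2c37, Cyp2c38, Cyp2c39, Cyp2c40, Cyp2c44, Cyp2c50, Cyp2c54, Cyp2c68 and Cyp2c70, of the 29734 genes in the table. Of these, 9 were matched by the gene name in the table and 1, Cyp2c44, stood there as Cyp2c23, which the RefSeq annotation lists as its synonym. RNA was sequenced from livers of 3 Prdx1C52S and 3 wild-type (WT) male mice, all kept on a Western diet for 20 weeks that began at an age of 8 weeks. Prdx1C52S mice carry a cysteine-to-serine substitution in peroxiredoxin 1, an enzyme that reduces hydrogen peroxide with that cysteine. Strain, zygosity and how the allele was made are not described in the labels, and there was no group on another diet. The libraries are named by the numbers in their labels, Prdx1C52S 1, 2 and 4 and WT 6, 8 and 9. Nothing says that they came from separate cages or litters, so the p-values measure the spread between these 6 samples.

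Cytochrome P450 enzymes of the Cyp2c family sit in the endoplasmic reticulum, hold a heme through a conserved cysteine and take electrons from cytochrome P450 reductase. In mouse liver several of them oxidise arachidonic acid to epoxyeicosatrienoic or hydroxyeicosatetraenoic acids, and they also oxidise drugs and retinoids. Cyp2c70 stands apart in function, as the enzyme that makes muricholic acids, the hydrophilic bile acids of mice. Transcription of Cyp2c genes is known to respond to the nuclear receptors CAR and PXR, to growth hormone and to HNF4A, and in the liver lobule several P450 genes are higher around the central vein.

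Levels are given as FPKM (fragments per kilobase of transcript, scaled to library depth), as the authors deposited them, so that they can be compared between genes. Tests used the deposited estimated counts, which totalled 60326469 to 76164949 per library. WT 8 stood apart from the other libraries, with the highest TMM scaling factor at 1.28, against 0.883 to 1.04 elsewhere. Krt19, a keratin of bile ducts, was at 1.59, 0.554 and 0.507 FPKM in Prdx1C52S 1, 2 and 4, against 3.97, 30.9 and 2.09 FPKM in WT 6, 8 and 9. Glul, the glutamine synthetase of hepatocytes next to the central vein, was at 347, 341 and 330 FPKM in the Prdx1C52S libraries, against 253, 33.3 and 262 FPKM in the WT libraries. WT 8 thus had both the most Krt19 and the least Glul. Results that rest on it are given with and without it. Alb, the albumin transcript of hepatocytes, was at 20760 to 22278 FPKM in the Prdx1C52S libraries and 18116 to 19647 FPKM in the WT libraries, abundant in all 6. Prdx1 itself was at 261, 238 and 242 FPKM in the Prdx1C52S libraries and 236, 232 and 270 FPKM in the WT libraries; a substitution in the protein is not visible in these values, so they do not check the genotype.

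The members are close paralogs, and the labels do not say how reads shared between them were assigned. Coding sequences at least 85% identical formed 3 sets: Cyp2c37, Cyp2c50 and Cyp2c54; Cyp2c29, Cyp2c38 and Cyp2c39; and Cyp2c40 and Cyp2c68. Within the first set identity was 95.11% to 96.13%, while Cyp2c29 and Cyp2c37 were 82.96% identical. Cyp2c70 was 69.08% identical to its closest member, Cyp2c50, and Cyp2c44 was 64.94% identical to its closest, Cyp2c29. The stretch of 30 bases that codes for the heme-binding loop around the conserved cysteine is shown because it lets the members be compared at a site all of them need. In it Cyp2c70 and Cyp2c44 stand apart, while the other members differ from Cyp2c29 at 3 or 4 positions whatever their identity over the whole coding sequence. It is printed 5′ to 3′ on the coding strand, with capitals marking bases that differ from Cyp2c29; in each gene an intron interrupts it.
Cyp2c29: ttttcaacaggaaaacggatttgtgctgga
Cyp2c37: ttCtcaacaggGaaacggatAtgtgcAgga
Cyp2c38: ttCtcaGcaggaaaacggGtttgtgctgga
Cyp2c39: ttCtcaGcaggaaaacgTGtttgtgctgga
Cyp2c40: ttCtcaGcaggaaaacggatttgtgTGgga
Cyp2c44: ttCtcCCTCggGaaGcgATCCtgtgTtggC
Cyp2c50: ttCtcaacaggaaaacggatAtgtgcAgga
Cyp2c54: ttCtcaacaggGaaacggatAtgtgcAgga
Cyp2c68: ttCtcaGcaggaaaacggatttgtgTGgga
Cyp2c70: ttCtcaGcaggaaGaAgAGCttgtATtgga
Cyp2c37 and Cyp2c54 have the same 30 bases as each other, and so do Cyp2c40 and Cyp2c68. Cyp2c50 differs from Cyp2c29 at 3 positions, against 9 in Cyp2c70 and 13 in Cyp2c44.

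**Figure D1:**
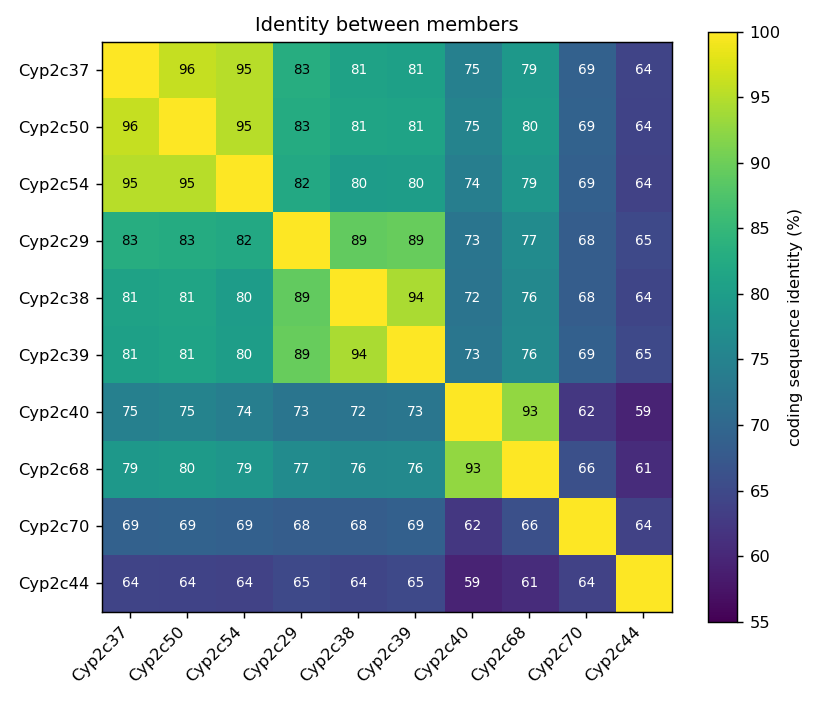
Percent identity of coding sequence (colour and printed number) between each pair of the 10 members by global alignment. Cyp2c37, Cyp2c50 and Cyp2c54 form the closest set, at 95.11% to 96.13%, and Cyp2c70 and Cyp2c44 lie farthest from the rest.

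How far reads could be shared was described by cutting each member's transcript into windows of 150 bases, the length of a read, and asking whether the same window occurs in a transcript of another gene. No such window of Cyp2c29, Cyp2c38, Cyp2c39, Cyp2c44 or Cyp2c70 occurred elsewhere. The share was 0.299% in Cyp2c37, 3.25% in Cyp2c50 and 2.99% in Cyp2c54, all with each other. It was 29.1% in Cyp2c40, with Cyp2c69, Cyp2c68 and Cyp2c67, and 8.83% in Cyp2c68, with Cyp2c40. Windows of 50 bases were shared far more often: 30.1% in Cyp2c37, 30.7% in Cyp2c50, 25.7% in Cyp2c54, 43.3% in Cyp2c68 and 72.1% in Cyp2c40. They were shared to 2.08% in Cyp2c29, 7.45% in Cyp2c38 and 12.0% in Cyp2c39, and to 0% in Cyp2c44 and Cyp2c70. The split of counts among these neighbours is therefore uncertain, for Cyp2c40 above all, and sums over near-identical members are given beside the single genes.

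The upstream sequences of Cyp2c29, Cyp2c37, Cyp2c50 and Cyp2c70 are shown because the first 3 had higher levels in Prdx1C52S livers and Cyp2c70 did not. Each is the 250 bases before the transcription start in RefSeq on GRCm38.p6, 5′ to 3′ on the gene's strand, from chr19:39286835-39287084 (+), chr19:39992174-39992423 (+), chr19:40089429-40089678 (+) and chr19:40187287-40187536 (-). Capitals mark matches to 5 motifs searched on both strands: TTCNNNGAA (STAT5), CAAAGTCCA (HNF4A), AGGTCA (a nuclear receptor core site), TTGCNNCAA and GTTAATNAT (HNF1). TTGCNNCAA was planned for C/EBP but is longer than the C/EBP consensus, so its matches are not read as C/EBP sites.
Cyp2c29: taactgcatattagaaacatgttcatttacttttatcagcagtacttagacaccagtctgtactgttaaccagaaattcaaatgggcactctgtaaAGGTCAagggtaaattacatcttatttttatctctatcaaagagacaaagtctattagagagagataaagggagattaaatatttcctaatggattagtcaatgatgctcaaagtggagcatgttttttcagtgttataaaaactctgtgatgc
Cyp2c37: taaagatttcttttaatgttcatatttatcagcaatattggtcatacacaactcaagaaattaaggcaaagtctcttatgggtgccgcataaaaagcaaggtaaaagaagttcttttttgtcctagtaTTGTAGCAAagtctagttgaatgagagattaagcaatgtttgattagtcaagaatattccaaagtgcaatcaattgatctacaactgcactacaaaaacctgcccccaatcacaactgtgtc
Cyp2c50: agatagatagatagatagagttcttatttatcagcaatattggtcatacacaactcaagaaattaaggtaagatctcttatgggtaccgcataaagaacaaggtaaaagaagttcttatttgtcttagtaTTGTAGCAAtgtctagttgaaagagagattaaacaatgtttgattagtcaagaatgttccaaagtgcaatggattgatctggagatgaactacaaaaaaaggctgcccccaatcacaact
Cyp2c70: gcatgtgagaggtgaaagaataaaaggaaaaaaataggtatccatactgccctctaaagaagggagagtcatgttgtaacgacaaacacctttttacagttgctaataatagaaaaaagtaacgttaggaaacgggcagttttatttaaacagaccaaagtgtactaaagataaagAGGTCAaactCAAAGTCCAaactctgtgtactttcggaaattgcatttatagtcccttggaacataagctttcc
RefSeq gave 9 promoters for 8 members, each searched from 250 bases before to 50 after the start; Cyp2c39 has 2 entries, and Cyp2c44 and Cyp2c54 have no entry in the table used. The letters TTGCNNCAA were found in Cyp2c37 and Cyp2c50 only, 122 and 120 bases before their starts, and 2.08% of 32851 mouse promoters hold them. These 2 promoters were 86.56% identical to each other. The HNF4A motif was found in Cyp2c40, Cyp2c68 and Cyp2c70, against 0.475% of all promoters. The core site was found in Cyp2c29, Cyp2c70 and 1 entry of Cyp2c39, against 16.3% of all promoters. That entry, at chr19:39347096-39347395, spans the start of the pseudogene Cyp2c72-ps and lies away from the Cyp2c39 row. The entry at the start of the Cyp2c39 row held no core site. The STAT5 and HNF1 motifs were found in 0 of 9, against 8.3% and 0.801% of all promoters. A match is a run of letters and not a bound site.

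Cyp2c29, Cyp2c37, Cyp2c50 and Cyp2c54 had higher levels in every Prdx1C52S library than in any WT library, with mean FPKM 4.27 to 11.3 times as high. The other 6 members had overlapping ranges. All 10 members passed the filter on low counts. In edgeR's quasi-likelihood test over 18931 genes, 0 of 10 members passed an adjusted p of 0.05 as higher or as lower, as did 0% of all genes in each direction. At an unadjusted p under 0.05, 5 of 10 members were higher, against 11.5% of all genes, and 0 were lower, against 14.8%. In FPKM, 4 of 10 members did not overlap between the groups and were higher, against 6.09% of genes tested, and 0 did so and were lower, against 36.7%. The same 4 had mean FPKM at least 3 times as high in Prdx1C52S livers, against 0.813% of genes. DESeq2, which estimates the spread differently, called 5 members higher (8.02% of the 17448 genes to which it gave an adjusted p) and 0 lower (9.88%). Without WT 8, edgeR called 1 member higher, Cyp2c50 (2.7% of genes), and 0 lower (1.94%).

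**Figure D2:**
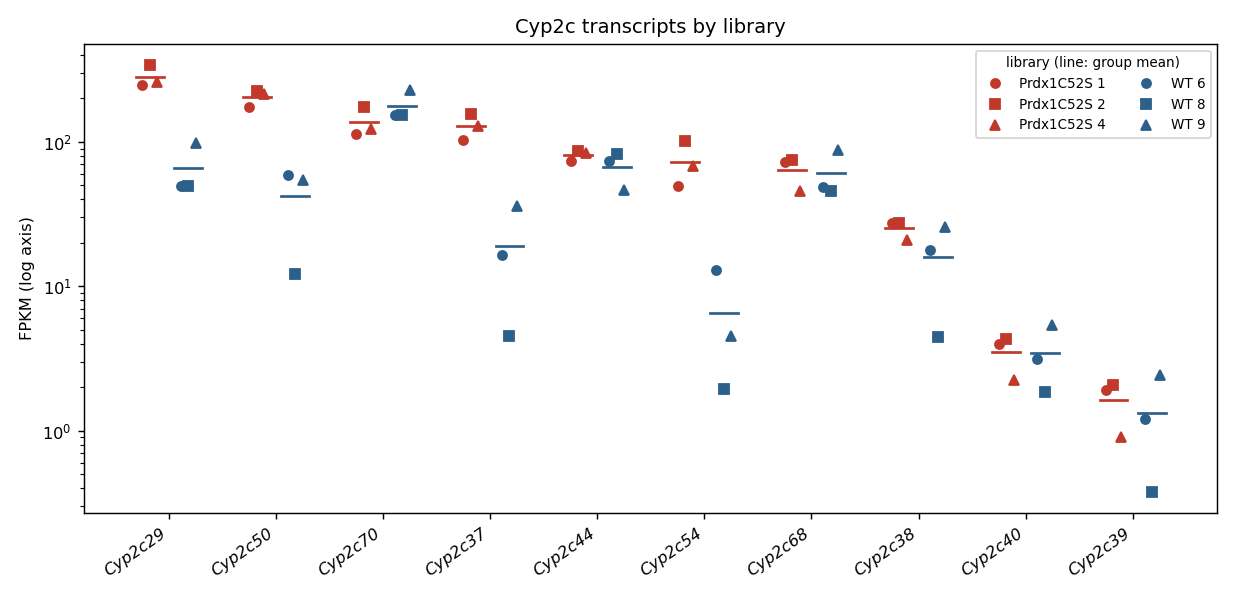
FPKM on a log axis of each member in each library, Prdx1C52S in red and WT in blue, with a line at each group's mean; members run from the highest to the lowest mean in Prdx1C52S livers. Cyp2c29, Cyp2c50, Cyp2c37 and Cyp2c54 show no overlap between the groups, and WT 8 is the lowest library for these 4 and for Cyp2c38, Cyp2c40 and Cyp2c39.

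Cyp2c29, an arachidonic acid epoxygenase and a well-known target of CAR, lies at chr19:39269405-39330699 (+). It was at 246, 339 and 260 FPKM in Prdx1C52S 1, 2 and 4, against 49.7, 49.2 and 98.8 FPKM in WT 6, 8 and 9. All 3 Prdx1C52S libraries were above all 3 WT libraries, and WT 8 was level with WT 6. Means were 282 ± 50.3 FPKM and 65.9 ± 28.5 FPKM (SD, n = 3 each), 4.27 times as high in Prdx1C52S livers and 3.79 times without WT 8. The log2 fold change in edgeR was 2.35 (SE 0.37, adjusted p = 0.0601). It was past the threshold in 8 of the 15 alternatives, among them without WT 9, the highest WT library, at an adjusted p of 0.0499 in edgeR.

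The nearest relatives of Cyp2c29 differed less. Cyp2c38, an arachidonic acid epoxygenase at chr19:39389556-39463075 (-), was at 27.4, 27.4 and 20.8 FPKM in the Prdx1C52S libraries, against 17.9, 4.48 and 25.6 FPKM in the WT libraries. WT 9 lay within the Prdx1C52S range and WT 8 far below it. The log2 fold change in edgeR was 0.87 (SE 0.61, adjusted p = 0.402), and 0.40 without WT 8. Cyp2c39, at chr19:39510862-39568529 (+) and described as a retinoic acid hydroxylase, was at 1.91, 2.07 and 0.905 FPKM in the Prdx1C52S libraries, against 1.20, 0.379 and 2.42 FPKM in the WT libraries. The ranges overlapped throughout (log2 fold change 0.51, SE 0.68, adjusted p = 0.674 in edgeR), and the value was 0.04 without WT 8 and 1.31 without WT 9. Summed over Cyp2c29, Cyp2c38 and Cyp2c39, whose transcripts differ in length so that the sum still depends in part on how reads were split, the level was 275, 369 and 282 FPKM in the Prdx1C52S libraries and 68.8, 54.0 and 127 FPKM in the WT libraries. That sum was 3.71 times as high in Prdx1C52S livers, and 3.15 times without WT 8.

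Cyp2c50, an arachidonic acid epoxygenase at chr19:40089688-40113950 (+), was at 175, 226 and 214 FPKM in the Prdx1C52S libraries, against 59.3, 12.2 and 54.8 FPKM in the WT libraries. WT 8 was the lowest, and the other WT libraries lay close together. Means were 205 ± 26.8 FPKM and 42.1 ± 26.0 FPKM (SD, n = 3 each), 4.87 times as high in Prdx1C52S livers. The log2 fold change in edgeR was 2.50 (SE 0.62, adjusted p = 0.0951). Without WT 8 it was smaller, at 2.04, but with an SE of 0.14 and an adjusted p of 0.00566, so that Cyp2c50 then passed the threshold as higher.

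Cyp2c37, an arachidonic acid hydroxylase at chr19:39992424-40012243 (+), was at 103, 155 and 129 FPKM in the Prdx1C52S libraries, against 16.5, 4.54 and 35.8 FPKM in the WT libraries. The WT libraries themselves spread widely, with WT 9 the highest and WT 8 the lowest. Means were 129 ± 26.1 FPKM and 18.9 ± 15.8 FPKM (SD, n = 3 each), 6.83 times as high in Prdx1C52S livers and 4.95 times without WT 8. In edgeR it had a log2 fold change of 2.98 (SE 0.75, adjusted p = 0.0953), and 2.50 without WT 8 (adjusted p = 0.0651). Without WT 9 it was 3.88 (adjusted p = 0.0531).

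Cyp2c54, an epoxygenase at chr19:40037940-40073827 (-), had the largest fold change of the 10 members. It was at 49.6, 101 and 68.6 FPKM in the Prdx1C52S libraries, against 13.03, 1.94 and 4.51 FPKM in the WT libraries. WT 6 was here the highest WT library, in contrast to Cyp2c29 and Cyp2c37, for which WT 9 was the highest. Means were 73.1 ± 26.0 FPKM and 6.49 ± 5.81 FPKM (SD, n = 3 each), 11.3 times as high in Prdx1C52S livers and 8.34 times without WT 8. In edgeR the log2 fold change was 3.72 (SE 0.77, adjusted p = 0.0819), and 3.26 without WT 8 (adjusted p = 0.110). Without WT 6 it was 4.78 (adjusted p = 0.127).

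The summed level of Cyp2c37, Cyp2c50 and Cyp2c54 was 327, 482 and 412 FPKM in the Prdx1C52S libraries and 88.8, 18.6 and 95.1 FPKM in the WT libraries. It was 6.03 times as high in Prdx1C52S livers, and 4.43 times without WT 8. Within the set, Cyp2c54 was at 0.284, 0.448 and 0.320 times the level of Cyp2c50 in the Prdx1C52S libraries, against 0.220, 0.159 and 0.0822 times in the WT libraries. These ratios did not overlap, with Prdx1C52S 1 and WT 6 the nearest. Whether the balance of Cyp2c54 and Cyp2c50 differed between the groups was not tested. Cyp2c37 was at 0.591, 0.689 and 0.603 times Cyp2c50 in the Prdx1C52S libraries, against 0.278, 0.374 and 0.653 times in the WT libraries, with overlap. Both ratios depend on how shared reads were split.

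Cyp2c68 and Cyp2c40 form the third close pair. Cyp2c68, at chr19:39688834-39741054 (-), was at 72.7, 74.9 and 45.5 FPKM in the Prdx1C52S libraries, against 48.5, 45.6 and 87.6 FPKM in the WT libraries. Both groups covered nearly the same range (log2 fold change 0.35, SE 0.34, adjusted p = 0.558 in edgeR). Cyp2c40, an arachidonic acid hydroxylase at chr19:39767071-39812814 (-), was at 4.01, 4.33 and 2.26 FPKM in the Prdx1C52S libraries, against 3.17, 1.87 and 5.38 FPKM in the WT libraries. Its log2 fold change of 0.26 (SE 0.46, adjusted p = 0.751 in edgeR) was -0.08 without WT 8, so it has no settled sign. Summed with Cyp2c67 and Cyp2c69, the other genes that share reads with them, the level was 163, 167 and 127 FPKM in the Prdx1C52S libraries and 133, 91.7 and 188 FPKM in the WT libraries, with overlapping ranges.

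Cyp2c44, an arachidonic acid epoxygenase at chr19:44005022-44029208 (-), was at 73.6, 86.4 and 83.2 FPKM in the Prdx1C52S libraries, against 73.9, 82.1 and 46.2 FPKM in the WT libraries. Only WT 9 lay apart, below the rest. The log2 fold change in edgeR was 0.57 (SE 0.19, unadjusted p = 0.0172, adjusted p = 0.123), and DESeq2 gave an adjusted p of 0.0273. With library totals in place of TMM scaling the log2 fold change was 0.26, while the median over all genes moved to -0.34, from -0.03 with TMM. TMM scaling lowers WT values relative to FPKM, most of all in WT 8, so a member with similar FPKM in both groups has a log2 fold change above 0.

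Cyp2c70, the muricholic acid enzyme at chr19:40153353-40187333 (-), was at 114, 175 and 123 FPKM in the Prdx1C52S libraries, against 153, 154 and 227 FPKM in the WT libraries. Prdx1C52S 2 lay between WT 8 and WT 9, and the other Prdx1C52S libraries lay below all WT libraries. Means were 137 ± 33.1 FPKM and 178 ± 42.7 FPKM (SD, n = 3 each). Its log2 fold change was -0.10 (SE 0.27, adjusted p = 0.838 in edgeR), -0.39 with library totals and 0.18 without WT 9, so no direction can be given.

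**Figure D3:**
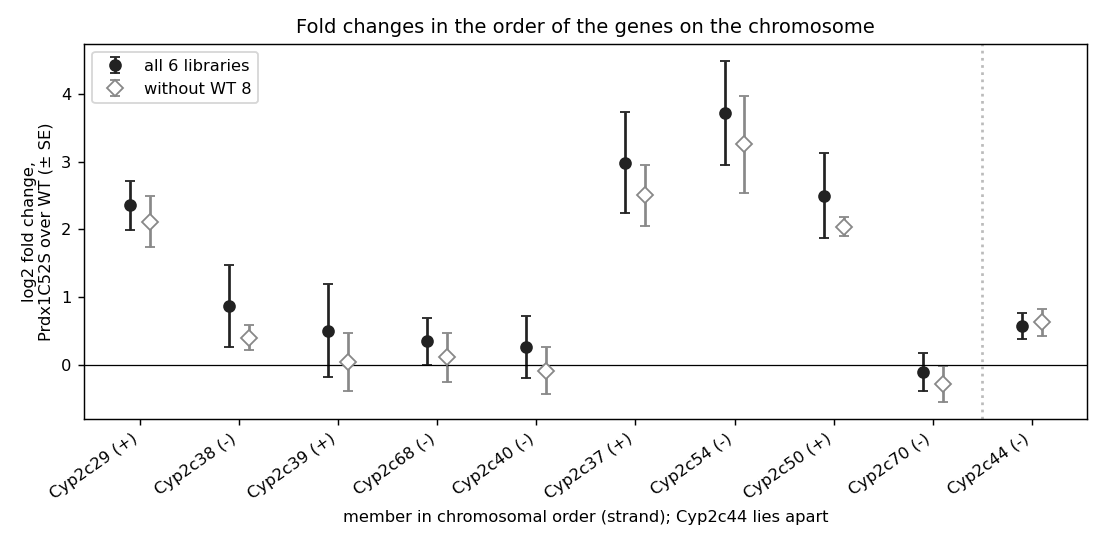
Log2 fold change of Prdx1C52S over WT (vertical axis, bars ± SE of edgeR's fit) for the members in their order along chromosome 19, with all 6 libraries (filled) and without WT 8 (open); the dotted line marks that Cyp2c44 lies apart. Values of 2.35 to 3.72 for Cyp2c29, Cyp2c37, Cyp2c54 and Cyp2c50 stand on both sides of 4 members with values of 0.26 to 0.87.

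The genes with the higher levels were not an unbroken block of the chromosome. The 9 members other than Cyp2c44 lie within 918 kb at chr19:39269405-40187333, and Cyp2c44 lies 3.82 Mb further on. Cyp2c29, at the start of this stretch, is followed by Cyp2c38, Cyp2c39, Cyp2c68 and Cyp2c40, and then by Cyp2c37, Cyp2c54 and Cyp2c50, which are neighbours, with Cyp2c70 at the end. Cyp2c37 and Cyp2c50 lie on the plus strand and Cyp2c54 between them on the minus strand. The Cyp2c29 row starts 5′ of its RefSeq start and shares 5581 bases with the pseudogene Cyp2c53-ps on the same strand; that pseudogene was at 0, 0.362 and 0.112 FPKM in the Prdx1C52S libraries and listed at 0 in the WT libraries.

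The family as a pool was at 867, 1192 and 947 FPKM in the Prdx1C52S libraries, against 436, 356 and 589 FPKM in the WT libraries, summed over the 10 members. All 3 Prdx1C52S libraries were above all WT libraries. The mean was 1002 ± 169 FPKM and 460 ± 118 FPKM (SD, n = 3 each), 2.18 times as high in Prdx1C52S livers and 1.96 times without WT 8. Cyp2c29, Cyp2c37, Cyp2c50 and Cyp2c54, grouped here after their values were seen, made up 66.1%, 68.9% and 70.9% of the pool in the Prdx1C52S libraries, against 31.7%, 19.1% and 32.9% in the WT libraries. The other 6 members together were at 294, 370 and 275 FPKM in the Prdx1C52S libraries and 298, 288 and 395 FPKM in the WT libraries, with overlapping ranges. Cyp2c70 made up 13.1%, 14.7% and 12.9% of the pool in the Prdx1C52S libraries, against 35.1%, 43.2% and 38.7% in the WT libraries. It was at the same time the most abundant member in each WT library, whereas Cyp2c29 was the most abundant in each Prdx1C52S library.

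**Figure D4:**
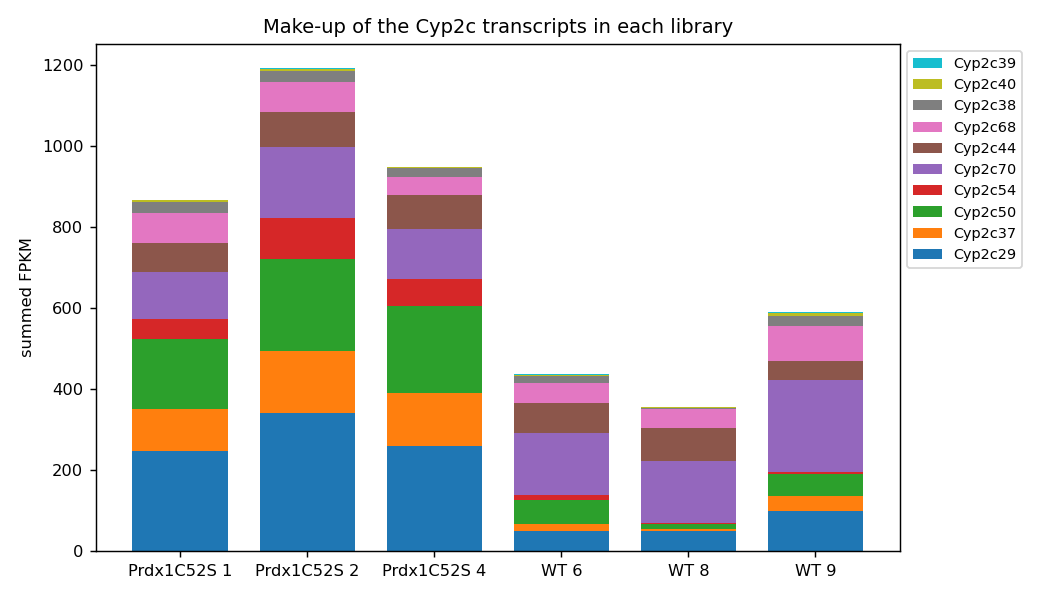
Summed FPKM of the 10 members in each library, stacked by member, with the Prdx1C52S libraries on the left. The total is 867 to 1192 FPKM in the Prdx1C52S libraries and 356 to 589 FPKM in the WT libraries, and the lower blocks of Cyp2c29, Cyp2c37, Cyp2c50 and Cyp2c54 carry the difference.

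By mean FPKM the order in Prdx1C52S livers was Cyp2c29, Cyp2c50, Cyp2c70, Cyp2c37, Cyp2c44, Cyp2c54, Cyp2c68, Cyp2c38, Cyp2c40 and Cyp2c39. Neighbours in this order had overlapping ranges for Cyp2c50 and Cyp2c70, Cyp2c70 and Cyp2c37, Cyp2c44 and Cyp2c54, and Cyp2c54 and Cyp2c68. In WT livers the order was Cyp2c70, Cyp2c44, Cyp2c29, Cyp2c68, Cyp2c50, Cyp2c37, Cyp2c38, Cyp2c54, Cyp2c40 and Cyp2c39. There only Cyp2c70 and Cyp2c44 were separate, and every other pair of neighbours overlapped.

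Ratios within a library do not depend on its scaling. Cyp2c29 was at 2.16, 1.94 and 2.12 times the level of Cyp2c70 in the Prdx1C52S libraries, against 0.325, 0.320 and 0.434 times in the WT libraries. Cyp2c50 was at 1.53, 1.29 and 1.75 times Cyp2c70 in the Prdx1C52S libraries, against 0.387, 0.0791 and 0.241 times in the WT libraries. Both ratios kept the groups apart in every library. Cyp2c29 and Cyp2c50 were already without overlap in FPKM, so the ratios are not separate support for the difference. Set against Glul, the picture was different for Cyp2c29, at 0.709, 0.996 and 0.787 times Glul in the Prdx1C52S libraries and 0.197, 1.48 and 0.378 times in the WT libraries, where WT 8 exceeded every Prdx1C52S library. Cyp2c37, Cyp2c50 and Cyp2c54 remained without overlap when divided by Glul, with Cyp2c50 at 0.504, 0.663 and 0.649 times Glul in the Prdx1C52S libraries and 0.234, 0.365 and 0.209 times in the WT libraries.

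Genes that work with the Cyp2c enzymes or share their regulators were read from lists chosen from general knowledge. In every list 0 genes passed the adjusted p in edgeR with all 6 libraries, so counts are given at an unadjusted p under 0.05, beside 11.5% of all genes higher and 14.8% lower. Where a gene is said not to overlap in FPKM, the shares over genes tested are 6.09% higher and 36.7% lower. The median log2 fold change was 0.72 over the Cyp2c members and -0.03 over all genes tested.

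Electron transfer partners and epoxide hydrolases gave 6 of 7 higher and 1 lower, with a median log2 fold change of 0.61. The lower gene was Por, the reductase that supplies electrons to every microsomal P450. It was at 75.2, 52.4 and 39.6 FPKM in the Prdx1C52S libraries and 126, 115 and 135 FPKM in the WT libraries. Its FPKM was lower without overlap, as for 36.7% of genes tested (log2 fold change -0.90, SE 0.26, adjusted p = 0.107 in edgeR). Por and the 4 Cyp2c genes with non-overlapping values thus differed in opposite directions. Cyb5b, a cytochrome b5, was at 131, 135 and 126 FPKM in the Prdx1C52S libraries and 79.5, 62.0 and 74.4 FPKM in the WT libraries, and it rose past the threshold without WT 8 (adjusted p = 0.00600). Pgrmc1, a heme-binding partner of P450 enzymes, had a log2 fold change of 0.73 (adjusted p = 0.102 in edgeR), and of 0.57 without WT 8 (adjusted p = 0.0264).

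Among transcription factors of hepatic P450 genes, 6 of 19 were higher and 1 lower, with a median of 0.26. Nr0b2, the repressor known as SHP that bile acids induce, was at 14.0, 25.8 and 16.9 FPKM in the Prdx1C52S libraries and 6.79, 6.70 and 10.97 FPKM in the WT libraries, without overlap (adjusted p = 0.0842 in edgeR). Ahr, the dioxin receptor, had a log2 fold change of 0.64, against -0.65 for Foxa3, a hepatocyte forkhead factor. Among CAR and PXR responsive genes, 7 of 19 were higher and 1 lower, with a median of 0.53. The lower gene was Gadd45b, a stress-response gene, at 1.32, 0.674 and 1.22 FPKM in the Prdx1C52S libraries and 2.64, 9.49 and 3.66 FPKM in the WT libraries. Abcc3, an efflux pump for conjugates, and Gstm1, a glutathione transferase, were higher without overlap, with log2 fold changes of 0.84 and 1.19. Cyp2b10, the gene most used as a sign of CAR activity, is named here outside the rule for named genes. It was low in every library, at 0.381, 0.296 and 0.760 FPKM in the Prdx1C52S libraries and 0.213, 1.79 and 0.942 FPKM in the WT libraries, with overlap. Nr1i3, the gene of CAR itself, is in the list of transcription factors and is also named outside that rule. Its FPKM was higher in every Prdx1C52S library than in any WT library, by a narrow margin. Nr1i3 passed the adjusted p threshold in DESeq2 but not in edgeR. The part of CAR in the Cyp2c difference was not tested.

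Other P450 enzymes that oxidise arachidonic acid gave 7 of 10 higher and 0 lower, all 10 with a positive log2 fold change and a median of 0.73. Cyp2j5, an epoxygenase of liver and kidney, was at 208, 249 and 197 FPKM in the Prdx1C52S libraries and 165, 123 and 170 FPKM in the WT libraries. Cyp2j9 and Cyp2u1 had log2 fold changes of 0.86 and 1.28. Bile acid synthesis gave 8 of 13 higher and 0 lower, all 13 positive, with a median of 0.77 (0.56 without WT 8), and 6 of 13 passed the adjusted p in edgeR without WT 8. Akr1d1, the reductase of the bile acid ring, was at 57.4, 57.9 and 44.2 FPKM in the Prdx1C52S libraries and 30.1, 24.6 and 28.9 FPKM in the WT libraries. Hsd3b7 and Baat, which act early in the pathway and in conjugation, had log2 fold changes of 0.99 and 0.77.

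Growth hormone dependent genes of male-biased expression gave 3 of 13 higher and 1 lower, and those of female-biased expression 0 of 13 tested higher and 1 lower. Most genes of the male-biased list had positive log2 fold changes. The median of that list was the highest of the related lists, with all libraries and, at a smaller value, without WT 8. In the male-biased list Elovl3, a fatty acid elongase, and Ugt2b38, a glucuronosyltransferase, had log2 fold changes of 2.65 and 1.11. Selenbp2 went the other way, at 11.4, 14.0 and 24.5 FPKM in the Prdx1C52S libraries and 135, 92.8 and 35.7 FPKM in the WT libraries. In the female-biased list Atp6v0d2, a proton pump subunit, had a log2 fold change of -0.46. Its FPKM was lower without overlap, as for 36.7% of genes tested. Cyp17a1 and Cyp3a41b had log2 fold changes of -0.82 and -0.95 with adjusted p of 0.395 and 0.329 in edgeR. The list as a whole had 7 positive and 6 negative log2 fold changes and a median of 0.19, with Cyp2b13 highest at 2.21, named outside the rule for named genes.

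Pericentral hepatocyte genes gave 8 of 15 higher and 0 lower, all 15 positive, with a median of 0.98, and of 0.59 without WT 8. Oat, which acts beside Glul in the same cells, was at 381, 439 and 336 FPKM in the Prdx1C52S libraries and 121, 61.5 and 231 FPKM in the WT libraries, and the Wnt pathway genes Axin2 and Lgr5 had log2 fold changes of 0.62 and 1.01. Periportal genes gave 3 of 12 higher and 1 lower, with a median of 0.19; Etnppl and Hal had log2 fold changes of 1.17 and 0.62, and Sds, a serine dehydratase, had -0.45. The pericentral genes and the 4 non-overlapping Cyp2c genes thus all had positive log2 fold changes, and the part of zonation in the Cyp2c difference was not tested. In whole liver, fewer cells of a type and less RNA per cell cannot be told apart.

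**Figure D5:**
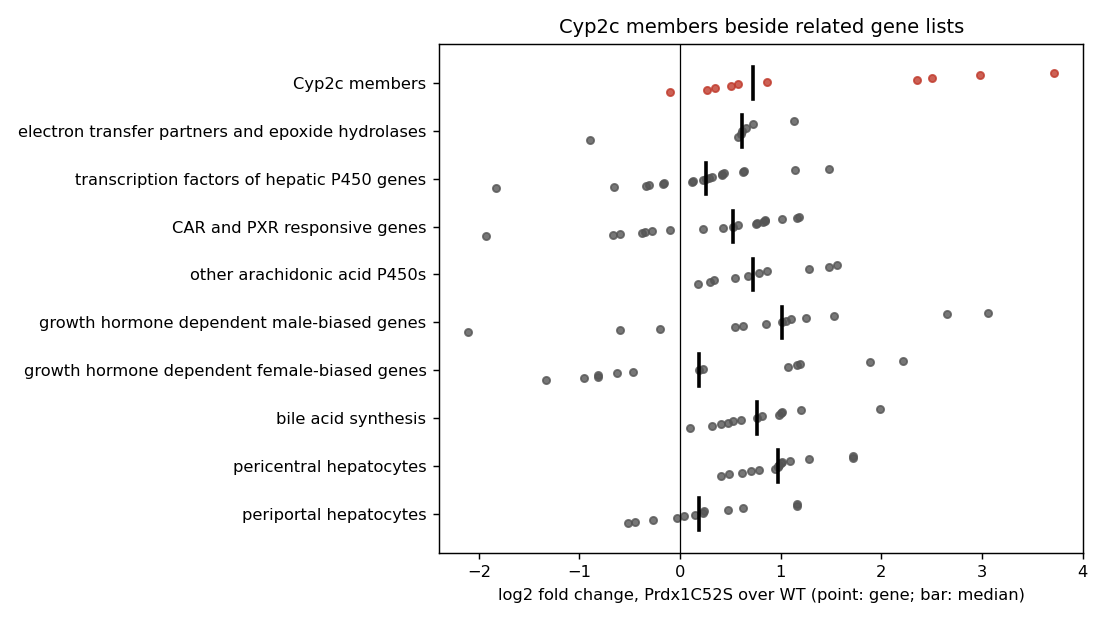
Log2 fold change of Prdx1C52S over WT (horizontal axis) of the Cyp2c members (red) and of the genes of 9 related lists (grey), 1 point a gene, with a bar at each list's median. The Cyp2c members split into 4 genes above 2 and 6 below 1, while the medians of the related lists lie between 0.19 and 1.01.

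Markers of other cells differed between the groups as well. All 7 cholangiocyte markers were lower at an unadjusted p under 0.05 in edgeR, and Spp1, Epcam and Anxa13 led them. The median log2 fold change of the 7 markers was -2.90, and -1.55 without WT 8. Their summed level was 132, 63.4 and 66.6 FPKM in the Prdx1C52S libraries and 359, 836 and 230 FPKM in the WT libraries. Spp1 alone made up most of that sum in every library, so the sum mainly follows that gene. Of 7 leukocyte and macrophage markers 4 were lower, with a sum of 159, 132 and 155 FPKM in the Prdx1C52S libraries and 372, 357 and 327 FPKM in the WT libraries, and Itgam, Ptprc and Lyz2 fell past the threshold in edgeR without WT 8. Of 6 stellate and endothelial markers 2 were lower, Col1a1 and Pecam1; 3 of 6 had negative log2 fold changes, with Des, and 3 positive (Lrat, Stab2 and Clec4g, named outside the rule for named genes), and the median was -0.03. Stab2 was at -0.15 on the log2 scale without WT 8. Of 7 hepatocyte markers 2 were higher, with a median of 0.47 and Tat, Ttr and Alb first. Hepatocyte markers summed to 32824 to 34716 FPKM in the Prdx1C52S libraries and 31155 to 33034 FPKM in the WT libraries, which overlap. That sum mixes opposite differences. In FPKM, Alb and Ttr were higher without overlap, against 6.09% of genes tested. Cps1, Apoa1 and Trf, named outside the rule for named genes, were lower without overlap, against 36.7%. The 4 Cyp2c genes, grouped after their values were seen, differed 5.16 times in their sum, and 4.15 times without WT 8. The part of these markers in the Cyp2c difference was not tested.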

How the data were processed

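Poly(A)-selected RNA of 6 livers was sequenced as read pairs. Tools listed in the submitters' processing notes are HISAT2 2.0.4, StringTie 1.3.4d, cutadapt 1.9 and UMI-tools, with the build mm9; the coordinates of 9 of the 10 members are identical in GENCODE M21 on GRCm38, which is the build printed here. Per the file headers, the authors deposited FPKM values and estimated counts for each gene, both used as given. Among estimated counts from 1 to 8 the most frequent is 4, so they were also divided by 4 as an alternative. Whether counting used the strand or collapsed molecular identifiers is not stated. Precision is set by the spread over 3 libraries per group.

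The rounded estimated counts went into edgeR 4.0.16 (limma 3.58.1, DESeq2 1.42.0 and R 4.3.3 for alternatives): filterByExpr, TMM, robust quasi-likelihood F-tests, two-sided, Benjamini-Hochberg adjustment over 18931 genes, threshold 0.05. The test was run on simulated data first. SE is the log2 fold change divided by the root of F. No protein sequences were at hand, so identity, planned on proteins, was computed on GENCODE M21 coding sequences (Biopython 1.88). Named genes are the members, other Cyp2c rows, the 3 genes of smallest p in each list, the 5 nearest profiles, Alb, Krt19 and Glul. Members and lists were chosen with earlier results of these data known. The alternatives were other scalings, filters, tools, FPKM in place of counts (pseudocounts 1 and 0.1) and leaving out each library.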

Additional observations from a re-analysis of the deposited data

How the results depend on the processing

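In edgeR's fit, 0 members, 0 genes higher and 0 genes lower passed the threshold, with 2176 genes higher and 2807 lower at an unadjusted p under 0.05. The number of members higher was 1 with library totals only, 1 without a filter on low counts, 1 with a mean of at least 1 FPKM, 5 with DESeq2, 4 with limma voom with library quality weights, 2 with limma on log2(FPKM + 1) and 1 on log2(FPKM + 0.1). Leaving out each library gave 0 to 1, with 1 without WT 8 (Cyp2c50) and 1 without WT 9 (Cyp2c29). The number of members lower was 0 in every alternative run. Over all genes, 35 were higher and 125 lower with library totals only, 105 and 91 without a filter, 99 and 103 with a mean of at least 1 FPKM, 1399 and 1723 with DESeq2, 1023 and 1006 with voom, 39 and 94 on log2(FPKM + 1), 59 and 221 on log2(FPKM + 0.1), and 43 and 40 with counts divided by 4. Leaving out each library gave 0 to 522 higher and 0 to 375 lower, with 522 and 375 without WT 8 and 63 and 69 without WT 9. The log2 ratio of the summed Cyp2c FPKM was 1.12; it was 1.52 from TMM-scaled CPM, and 0.97 to 1.34 when each library was left out. Leaving out each library, the log2 fold change was 2.12 to 2.85 for Cyp2c29, 2.50 to 3.88 for Cyp2c37, 2.04 to 2.85 for Cyp2c50 and 3.26 to 4.78 for Cyp2c54. It was -0.082 to 0.79 for Cyp2c40, with the change of sign without WT 8, and -0.33 to 0.18 for Cyp2c70, with a change of sign without Prdx1C52S 1 (0.026) and without WT 9 (0.18). The causes were not tested. With 3 libraries per group, differences below the spread between them were not detectable at this depth. No paired analysis was possible because the groups share no replicate numbers.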

Other observations

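The table holds 7 further rows named Cyp2c. Cyp2c67 was at 85.6, 86.9 and 78.4 FPKM in Prdx1C52S 1, 2 and 4, against 80.1, 43.4 and 94.0 FPKM in WT 6, 8 and 9, a level like that of Cyp2c68 and with overlapping ranges. Cyp2c55 was at 3.15, 2.52 and 2.57 FPKM in the Prdx1C52S libraries, against 2.15, 11.2 and 2.74 FPKM in the WT libraries, so WT 8, the lowest library for 7 members, was the highest for Cyp2c55. Cyp2c69 was at 0.747, 0.747 and 0.399 FPKM in the Prdx1C52S libraries, against 0.770, 0.840 and 1.01 FPKM in the WT libraries. It was thus lower without overlap in FPKM, as were 36.7% of genes tested. Its log2 fold change in edgeR was -0.18 (SE 0.35), within its error of no difference. Cyp2c65, Cyp2c52-ps, Cyp2c53-ps and Cyp2c72-ps were each below 0.4 FPKM in all 6 libraries.

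Of 11833 genes outside the Cyp2c names with a mean of at least 1 FPKM, the 5 whose profile over the 6 libraries lay nearest to the summed members were Gm36028, Gm35986, Gstt3, Nr0b2 and 1700001C19Rik. Their root mean square distance to the summed profile was 0.120 to 0.167 on the log2 scale, each profile taken as log2(FPKM + 0.1) around its own mean. Gstt3, a glutathione transferase, was at 13.8, 18.3 and 11.7 FPKM in the Prdx1C52S libraries, against 6.11, 6.15 and 9.10 FPKM in the WT libraries.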
